A study of Mus musculus with 8 samples.

Results

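The end of a wound healing time course was set against its start. Viable tdTomato-high cells were sorted from skin wounds of Sm22-Cre;tdTomato mice on a mixed background, and the 2 SMART-seq2 libraries of day 26 after wounding were compared with the 2 of day 12. The rule took every gene with at least 1 TPM in at least 2 of the 8 libraries of the series, which left 15062 of 43346 genes to test. The other 4 libraries, 2 each of days 15 and 21, entered the fit and its estimate of spread, and were also compared with each other for the same genes. All 4 groups shared the genotype. All were taken after wounding, so no untreated or unwounded control was part of the comparison. In this strain Cre is driven by the promoter of Sm22, also called Tagln, which is active in myofibroblasts and also in smooth muscle and some pericytes, so the sort takes cells by a label and not by their present state. The labels do not state whether animals were pooled or whether each library had its own animal, so p-values here cover only library-to-library spread, which may be technical.

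Myofibroblasts are contractile fibroblasts that close a wound and fill it with new matrix. They divide early, carry bundles of actin and myosin, and lay down collagen, and later in healing the cells of the scar stop dividing, lose part of their contractile apparatus and remodel the matrix. In large mouse wounds hair follicles and fat cells form anew during this second period, and the question set by the design is how the sorted cells differ between the early and the late end of it.

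Values are TPM (transcript abundances), which are scaled by transcript length and to a fixed sum in each library. They keep no record of sequencing depth, so the depth is unknown and no counting interval can be given. Between 13135 and 14147 genes reached 1 TPM in a library. Changes are log2 differences of TPM + 1 between the day means, with the SE from the fit over 8 libraries, and they understate the change of genes with few TPM. "Rose" and "fell" are used only for genes with an adjusted p under 0.05. The sex of the animals is not given. Xist, the RNA that silences an X chromosome in female cells, was listed at 0.01 TPM or less in all 4 libraries of days 12 and 26, and the Y-linked gene Ddx3y stood at 26.8 and 24.8 TPM on day 12 and at 34.0 and 30.0 TPM on day 26. In the days between, every library held Xist. Library 1 of day 15 had 30.7 TPM of Xist with Ddx3y listed at 0, and library 2 of day 21 had 27.5 TPM of Xist with 7.43 TPM of Ddx3y. Library 2 of day 15 had 5.54 TPM of Xist with 24.0 TPM of Ddx3y, and library 1 of day 21 had 4.78 TPM with 24.5 TPM. Whether libraries with both RNAs held cells of several animals was not tested. Markers of keratinocytes were higher and markers of macrophages lower on day 26, as detailed towards the end, and fewer cells of a type cannot be told apart from less RNA per cell in these sorted pools.

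Between day 12 and day 26, 792 genes rose and 1770 fell, which is 5.26% and 11.8% of the tested genes and 17% together, while 12500 did not pass. The rises were fewer but reached further. On the log2 scale 551 genes rose and 1094 fell by at least 1, but 61 rose and 53 fell by at least 3, and 26 rose and 12 fell by at least 4. Markers of other cells are in these counts. Of 28 tested keratinocyte markers 25 rose, with a list median of 2.61, and of 32 macrophage and leukocyte markers 25 fell, with a list median of -1.79. Their part in the large rises and falls was not tested. The balance of rises and falls depended on the scaling of the libraries, and the median change of all tested genes was -0.20 in the TPM as deposited. Rises made up 30.9% of the calls in those values, 48.9% after quantile normalization (1162 rose, 1215 fell) and 52.9% with median-of-ratios scaling (1234 rose, 1098 fell). List medians are therefore also given relative to all tested genes. Counts of list members are to be read against the 5.26% and 11.8% of all tested genes that rose and fell. A single library also carried weight, since without library 1 of day 12 the counts were 280 and 438, without library 2 of day 12 447 and 902, and without library 1 of day 26 539 and 1023. For 9240 tested genes, or 61.3%, the libraries of the days did not overlap, so with 2 libraries a day a lack of overlap alone says little, and all 2562 genes that passed were among them. Of the genes with a mean below the first quartile of level 4.2% rose, and of those above the third 8.31% did. Among gene types, 5.62% of 13317 protein-coding genes rose and 12.1% fell, whereas 2.97% of 337 lincRNAs rose and 6.53% fell.

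**Figure D1:**
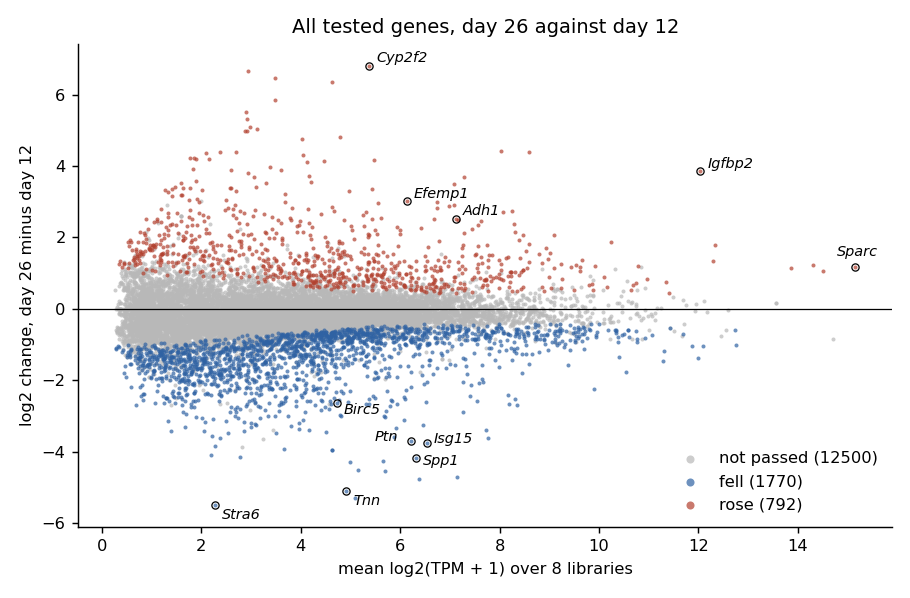
Log2 change from day 12 to day 26 (vertical axis) against mean log2(TPM + 1) over the 8 libraries (horizontal axis) for the 15062 tested genes, 1 point for each gene. Red points rose (792), blue points fell (1770) and grey points did not pass (12500); Igfbp2 stands out as a very abundant gene with a log2 change of 3.85.

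The genes that rose took over a large part of the RNA. Their summed TPM made up 10.6% and 13.3% of each day 12 library and 29.1% and 27.3% of each day 26 library, while the genes that fell went from 26.0% and 24.7% to 13.2% and 13.1%. These shares follow from how the genes were chosen for days 12 and 26. On the days between, the rising genes held 15.2% and 16.3% on day 15 and 22.98% and 21.6% on day 21. The falling genes held 20.6% and 21.8% and then 15.9% and 15.5%. Genes chosen this way are extreme on both end days, so a place between the ends is favoured by the choice. The order of day 15 against day 21 was not set by it. Secreted products were among the largest gains. The matrix glycoprotein gene Sparc went from a mean of 24401 to 55038 TPM, the collagen genes Col1a1 from 16697 to 34386 TPM and Col3a1 from 13316 to 30922 TPM, and Igfbp2, a binding protein of insulin-like growth factors, from 959 to 13613 TPM. Among the genes that passed with large losses were Actb, the cytoplasmic actin, from 9816 to 4934 TPM, the galectin gene Lgals1 from 6086 to 2977 TPM, the lipid carrier gene Apoe from 4788 to 1907 TPM, and Postn, which encodes the wound matrix protein periostin, from 3658 to 1619 TPM. These genes were picked for the size of their difference in TPM after the values were seen, and the calls of most were fragile. Without library 1 of day 12 Sparc, Col1a1, Col3a1, Actb and Apoe did not pass (adjusted p = 0.0617, 0.134, 0.0710, 0.0557 and 0.189). Postn and Apoe did not pass without library 2 of day 12 (0.0737 and 0.0671), nor Col1a1 and Apoe without library 1 of day 26 (0.0561 and 0.0695). After quantile normalization the log2 changes of Sparc, Col1a1 and Col3a1 were 0.44, 0.38 and 0.56 and did not pass, and with median-of-ratios scaling only Col3a1 and Igfbp2 of these 8 genes passed.

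**Figure D2:**
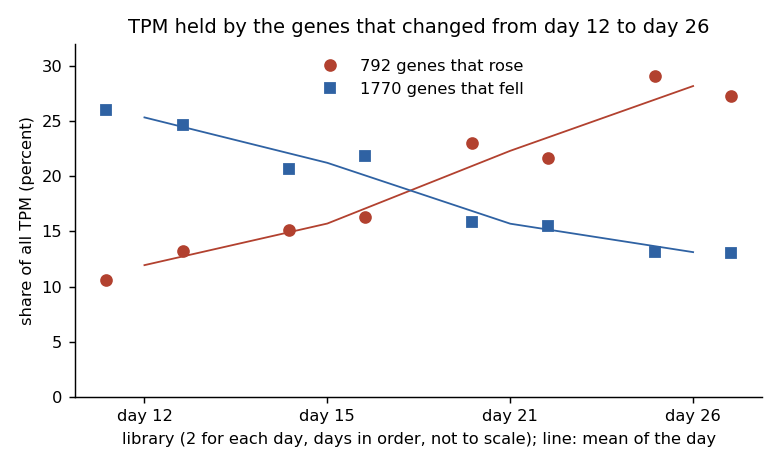
Share of all TPM (percent, vertical axis) held in each library by the 792 genes that rose (red circles) and the 1770 that fell (blue squares) from day 12 to day 26; lines join the day means. The libraries of days 15 and 21 lay between those of days 12 and 26, a place that the choice of genes favours. The order of day 15 against day 21 was not set by that choice.

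The libraries of days 15 and 21 were also compared with each other for the same genes. Both contrasts came from the same fit and shared its estimate of spread for each gene. A gene with a small spread was thus favoured in both, so the counts of calls below are not separate evidence. The direction of change between days 15 and 21 does not depend on that spread. Between those days 74 genes rose and 137 fell in the same fit, 0.491% and 0.91% of those tested. Of the 792 genes that rose over the whole span, 661 (83.5%) were higher on day 21 than on day 15, with a median log2 change of 0.38, and 54 rose and 0 fell. Of the 1770 that fell over the whole span, 1411 (79.7%) were lower on day 21, with a median of -0.42, and 118 fell while 3 rose. Over all tested genes 40.3% were higher on day 21, with a median of -0.10. Among the 180 genes that rose by at least 2 on the log2 scale, 162 were higher on day 21 and 32 rose, and among the 278 that fell by at least 2, 232 were lower and 55 fell. Calls between the middle days rest on all 4 of their libraries. In the limma fit without library 1 of day 15, 21 rose and 57 fell, and without its library 2, 39 rose and 18 fell. Without library 1 of day 21, 0 rose and 4 fell, and without its library 2, 0 rose and 2 fell; an unadjusted p under 0.05 with a rise was then found for 559 and 580 genes.

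Genes of cell division fell as a block. Mitosis needs cyclins, kinases, and motor and spindle proteins that are made only in dividing cells, and all 25 tested members of the mitosis list fell. Their median was -2.25 on the log2 scale, and -2.05 after the median of all tested genes was subtracted. Their changes ranged from -2.99 to -1.15, and in each the libraries of the days stood apart. Birc5, which encodes survivin of the chromosomal passenger complex, started at 56.0 and 63.5 TPM on day 12, stood at 53.2 and 51.6 TPM on day 15 and 14.9 and 14.0 TPM on day 21, and ended at 7.64 and 9.98 TPM (log2 change -2.64, SE 0.18, adjusted p = 0.000121). The cyclin gene Ccna2 had 41.3 and 46.9 TPM on day 12 and 5.32 and 6.74 on day 26 (log2 change -2.69, SE 0.20, adjusted p = 0.000163). Plk1, a kinase of mitotic entry, went from 27.3 and 25.7 to 1.91 and 3.09 TPM (log2 change -2.99, SE 0.23, adjusted p = 0.000200). Ube2c, the ubiquitin-conjugating partner of the anaphase-promoting complex, went from 71.1 and 72.4 to 8.31 and 14.3 TPM (log2 change -2.61, SE 0.23, adjusted p = 0.000367). The 4 genes shared a time course, with small differences between days 12 and 15 and the steep part between days 15 and 21. Between those middle days 13 of the 25 fell and 0 were higher, with a median of -1.38.

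The replication list moved the same way and less far. Of its 28 tested members 22 fell and 6 did not pass, with a median of -1.25, or -1.05 relative to all tested genes, and 4 fell between days 15 and 21. Uhrf1, which maintains DNA methylation behind the fork, had 14.4 and 21.1 TPM on day 12 and 2.81 and 3.13 on day 26 (log2 change -2.22, SE 0.25, adjusted p = 0.000957). The helicase gene Mcm2 had 21.8 and 24.2 and then 6.13 and 7.31 TPM (log2 change -1.64, SE 0.21, adjusted p = 0.00183). Chaf1b, a histone chaperone, changed by -1.85 and Rfc3, a loader of the sliding clamp, by -1.45. With each library of days 12 and 26 left out in turn, taken here and below in the order day 12 library 1, day 12 library 2, day 26 library 1 and day 26 library 2, the falls numbered 19, 20, 23 and 25 for mitosis and 7, 9, 11 and 19 for replication.

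Promoters of the mitosis genes are shown because their late cell cycle timing is known to depend on short elements near the start site, the CCAAT box and the cell cycle genes homology region (CHR). RefSeq windows from 250 bases before to 50 after the start (GRCm38.p6) were matched by symbol to 21 of the 25 mitosis genes. The CHR letters TTTGAA, searched on both strands, occurred in 16 of these 21 genes (76.2%) and in 17.9% of all 32851 windows, and the CCAAT letters in 18 of 21 (85.7%) and in 37.4% of all windows. Of the 23 matched replication genes 2 held TTTGAA and 13 (56.5%) CCAAT. The CCAAT share was also above that of all windows in the contractile (57.1%) and detoxification (59.1%) lists. Here and below a list gene counts if any of its windows holds the letters, which favours the lists over the share of all windows. Counted by window, the mitosis shares were 77.3% for TTTGAA and 86.4% for CCAAT. The CCAAT shares of the contractile and detoxification lists were then 53.3% and 57.7%. Below are the 250 bases before the start of Ube2c (chr2:164769679-164769928, plus strand) and Top2a, the mitotic topoisomerase (chr11:99024190-99024439, minus strand), each read 5′ to 3′ towards the gene, with both elements in capitals on either strand.
Ube2c: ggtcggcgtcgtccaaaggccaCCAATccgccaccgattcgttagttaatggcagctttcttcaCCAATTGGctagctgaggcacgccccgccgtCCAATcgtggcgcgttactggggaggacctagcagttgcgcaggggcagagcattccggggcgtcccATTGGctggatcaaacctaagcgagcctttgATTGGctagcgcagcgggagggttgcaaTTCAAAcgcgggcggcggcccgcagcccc
Top2a: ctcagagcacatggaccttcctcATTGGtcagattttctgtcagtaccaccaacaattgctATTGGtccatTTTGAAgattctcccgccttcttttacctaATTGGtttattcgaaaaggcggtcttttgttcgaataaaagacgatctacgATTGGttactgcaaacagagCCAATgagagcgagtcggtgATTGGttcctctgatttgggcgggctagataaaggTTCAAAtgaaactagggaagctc
In Ube2c the CHR letters begin 29 bases before the start, and in Top2a 179 and 23 bases before it, and each stretch holds 6 CCAAT matches (2 of those in Ube2c overlap). A match of letters is a description and says nothing about binding in these cells. The promoters shown, here and below, were picked by adjusted p among members with a single window whose 250 bases hold the element (here the CHR). Its presence in them was thus set by the choice.

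Many genes of the actin and myosin machinery fell. Non-muscle actomyosin and focal adhesions carry the tension a cell puts on its matrix, and 20 of their 32 tested genes fell, with a median of -0.68, or -0.48 relative to all tested genes. The share that fell, 62.5%, stands beside 11.8% of all tested genes. The count was 11 with median-of-ratios scaling, where the median was -0.45, and 6, 11, 11 and 17 with each library left out in turn. Fhl2, a LIM protein of focal adhesions, began at 98.7 and 101 TPM, had 64.4 and 71.0 TPM on day 15 and 52.5 and 48.8 TPM on day 21, and reached 42.1 and 41.1 TPM (log2 change -1.25, SE 0.13, adjusted p = 0.000858). Tpm2, a tropomyosin that runs along actin filaments, went from 489 and 482 to 124 and 196 TPM (log2 change -1.63, SE 0.20, adjusted p = 0.00148). Among the other members that fell were the LIM protein genes Pdlim7 and Pdlim5, at -1.17 and -1.26 on the log2 scale, while 12 of the 32 did not pass. The contractile list of smooth muscle genes had 7 falls among 22 tested (median -0.64), and 3 without library 1 of day 12. The 7 falls were 31.8% of the tested contractile genes, against 11.8% of all tested genes. The contractile and actomyosin lists share Myl9, Tpm1, Tpm2 and Cald1. Tpm1 and Tpm2 fell and count in both, so the counts of these lists are not separate. The 4 with the lowest p included Actg2, an actin of smooth muscle, at 218 and 205 TPM on day 12 and 36.5 and 34.9 on day 26 (log2 change -2.53, SE 0.17, adjusted p = 0.000121). Another was Cnn1, a calponin, at 14.0 and 10.8 and then 0.86 and 0.41 TPM (log2 change -3.04, SE 0.35, adjusted p = 0.00105). Tagln, whose promoter marks the cells, had 254 and 175 TPM on day 12 and 65.0 and 141 on day 26 and did not pass (adjusted p = 0.0600). Acta2, the smooth muscle actin that defines myofibroblasts, fell from 1609 and 1353 to 381 and 644 TPM (log2 change -1.57, adjusted p = 0.0156), and it did not pass without library 1 or 2 of day 12 or library 1 of day 26 (adjusted p = 0.118, 0.0560 and 0.0739).

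The CArG box, the element read by serum response factor at many contractile genes, occurred in 6 of 29 matched actomyosin genes (20.7%) and 3 of 14 matched contractile genes, against 1.63% of all windows. Counted by window, the shares of these lists were 19.4% and 20%. The 250 bases before the start of Cnn2, a calponin of non-muscle cells that fell from 446 and 444 to 300 and 280 TPM (log2 change -0.62, SE 0.14, adjusted p = 0.0200), are shown with it in capitals (GRCm38.p6, chr10:79988350-79988599, plus strand).
Cnn2: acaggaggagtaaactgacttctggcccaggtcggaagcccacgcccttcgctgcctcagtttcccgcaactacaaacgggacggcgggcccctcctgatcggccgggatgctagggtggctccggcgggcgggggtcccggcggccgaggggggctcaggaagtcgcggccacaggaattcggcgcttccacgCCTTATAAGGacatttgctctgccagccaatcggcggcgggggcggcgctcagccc
It begins 56 bases before the start and reads the same on both strands. The fall of Cnn2 missed the threshold with each of the 4 libraries left out in turn (adjusted p = 0.125, 0.0919, 0.0503 and 0.0768) and with median-of-ratios scaling (0.119).

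Targets and effectors of YAP and TEAD, the factors that respond to tension, did not follow the actomyosin genes as a list. Of 20 tested 1 rose and 2 fell (5% and 10%), with a median of -0.18 (0.03 after quantile normalization). These shares were near the 5.26% and 11.8% of all tested genes. Tead2, a DNA-binding partner of YAP, fell from 30.9 and 28.1 to 9.09 and 8.09 TPM (log2 change -1.67, SE 0.19, adjusted p = 0.00101). Nt5e, the ectonucleotidase CD73, rose from 4.68 and 11.9 to 52.6 and 53.1 TPM (log2 change 2.65, SE 0.41, adjusted p = 0.00381). Among integrins, the receptors that tie cells to matrix, 1 of 17 rose and 2 fell (5.88% and 11.8%), again near the shares of all tested genes. The riser was Itgbl1, an integrin-like secreted protein, from 162 and 222 to 778 and 572 TPM (log2 change 1.81, adjusted p = 0.00214), while Itga4 and Itga6 fell by 1.07 and 1.49 on the log2 scale. Neither integrin passed without library 1 of day 12 (adjusted p = 0.110 and 0.187), library 2 of day 12 (0.0937 and 0.148) or library 1 of day 26 (0.0738 and 0.172).

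The type I interferon response was high on day 12 and low on day 26. Interferons bind receptors at the cell surface and make cells transcribe antiviral genes. Of 25 tested members 22 fell, none rose and 3 did not pass (Zbp1, Ifit2 and Cmpk2), all 25 had lower means on day 26, and the median was -2.46 (-2.26 against that of all tested genes). Leaving out the libraries in turn gave 12, 15, 17 and 22 falls. Isg15, a ubiquitin-like protein of this response, began at 313 and 381 TPM, had 124 and 483 TPM on day 15 and 26.7 and 39.2 TPM on day 21, and ended at 20.2 and 30.6 TPM (log2 change -3.75, SE 0.52, adjusted p = 0.00246). The 4 libraries of days 12 and 15 were all above the 4 later ones, and the libraries of day 15 differed widely. Oas1a, a sensor of double-stranded RNA, showed the same order, with 53.6 and 52.7, 26.9 and 59.7, 8.74 and 7.48, and 3.12 and 5.50 TPM (log2 change -3.39, SE 0.36, adjusted p = 0.000753). Mx2, an antiviral GTPase, fell from 17.6 and 17.0 to 1.52 and 1.10 TPM (log2 change -2.99), and Rtp4, a further gene of the response, changed by -2.67. Between days 15 and 21, 6 members fell, among them Isg15, Oas1a and Mx2, and 0 were higher, with a median of -1.75. Summed macrophage markers stood at 2785 and 4397 TPM on day 15 and at 3625 and 3602 TPM on day 21. That sum mixes markers that went different ways, since 15 of the 32 were higher on day 21 than on day 15. Cd74 had 252 and 636 and then 855 and 915 TPM, whereas Lyz2 had 837 and 1062 and then 635 and 620 TPM. On days 12 and 26 the sum was 9006 and 6148 and then 2243 and 3510 TPM. The part of leukocyte RNA in the interferon falls was not tested for either pair of days.

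Promoters of many, but not all, genes of this response carry the interferon-stimulated response element. Its letters GAAANNGAAA, on either strand, occurred in 9 of 16 matched members (56.2%), in 1 of the 21 matched mitosis genes and in 3.44% of all windows. Counted by window, the share of the interferon list was 50%. The 250 bases before the start of Oas1a (GRCm38.p6, chr5:120907526-120907775, minus strand) and Isg15 (chr4:156200819-156201068, minus strand) are shown with the matches, which overlap each other, in capitals.
Oas1a: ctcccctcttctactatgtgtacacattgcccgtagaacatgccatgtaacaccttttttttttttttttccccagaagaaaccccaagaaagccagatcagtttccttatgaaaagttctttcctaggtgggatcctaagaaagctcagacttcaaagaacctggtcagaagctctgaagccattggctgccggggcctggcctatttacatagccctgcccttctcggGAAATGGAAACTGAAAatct
Isg15: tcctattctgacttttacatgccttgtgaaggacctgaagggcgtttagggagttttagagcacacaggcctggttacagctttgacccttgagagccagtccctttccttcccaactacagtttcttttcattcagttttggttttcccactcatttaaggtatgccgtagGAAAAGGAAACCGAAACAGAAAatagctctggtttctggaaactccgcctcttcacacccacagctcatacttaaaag
Oas1a has 2 such matches beginning 20 and 14 bases before the start, and Isg15 has 3 beginning 78, 72 and 66 bases before it. MHC class I genes, which present peptides and also respond to interferon, did not move as a list between days 12 and 26. Of 18 tested 1 rose (H2-M3, log2 change 0.73, adjusted p = 0.0263) and 17 did not pass, with a median of -0.04. Between days 15 and 21, however, 2 of the 18 fell and 0 were higher, with a median of -0.63. H2-M3 had 22.5 and 21.9, 29.7 and 31.3, 17.1 and 22.1, and 34.3 and 40.7 TPM over the 4 days, so it did not climb steadily. H2-M3 did not pass without library 1 or 2 of day 12 or library 2 of day 26 (adjusted p = 0.139, 0.121 and 0.120).

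**Figure D3:**
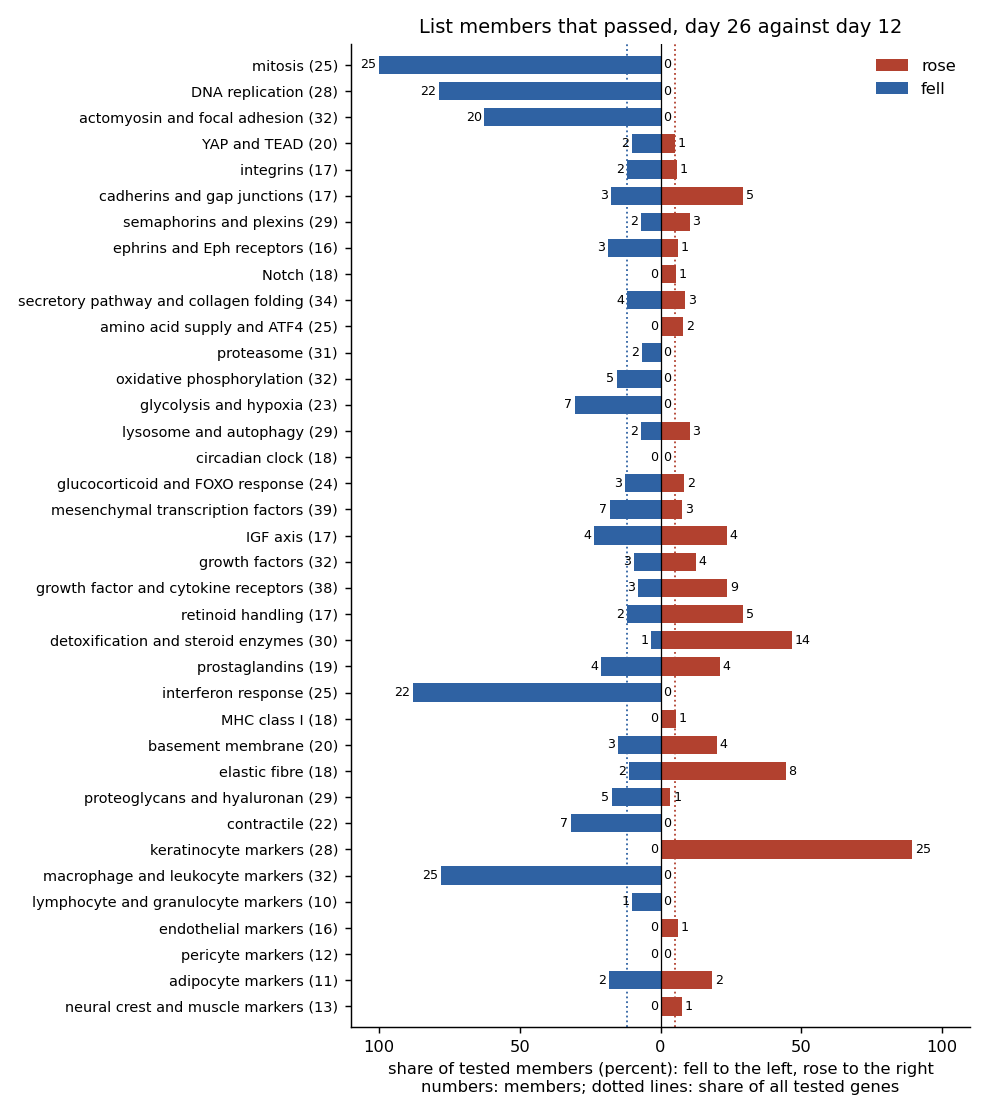
Share of the tested members of each list (number tested in brackets) that rose (red, to the right) or fell (blue, to the left) from day 12 to day 26, in percent, with the number of members at the end of each bar. Dotted lines mark the 5.26% and 11.8% of all tested genes that rose and fell; mitosis, replication, actomyosin, interferon and macrophage lists reach far to the left, and keratinocyte, detoxification and elastic fibre lists to the right.

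In the matrix, part of the elastic fibre genes rose. Elastic fibres give skin its recoil and are built from elastin on a scaffold of fibrillins, fibulins and microfibril proteins that lysyl oxidases crosslink. Among 18 tested genes there were 8 rises and 2 falls, and 8 missed the threshold, with a median of 0.54 (0.74 above that of all tested genes), and 4 rose without library 1 of day 12. Efemp1, a fibulin, had a mean of 25.02 ± 1.53 TPM on day 12 (SD, n = 2 libraries), then 54.5 and 47.9 TPM (day 15) and 85.0 and 82.7 TPM (day 21), and lastly 188 and 233 TPM (log2 change 3.02, SE 0.16, adjusted p = 4.05e-05). It was higher in both libraries of each later day than in those of the day before. Eln, the elastin gene, had 82.4 and 172, 88.5 and 212, 505 and 856, and 855 and 757 TPM (log2 change 2.74, SE 0.45, adjusted p = 0.00476), with the gap between days 15 and 21. Fbln5, which brings elastin to the fibres, rose from 113 and 168 to 398 and 314 TPM (log2 change 1.36, SE 0.21, adjusted p = 0.00409). The crosslinking enzymes divided, since Loxl4 (1.88) and Lox (1.40) rose and Loxl2 (-1.44) and Loxl3 (-1.06) fell on the log2 scale. Lox, Loxl2 and Loxl3 were looked up after their values were seen, and Lox did not pass without library 1 of day 12 (adjusted p = 0.0537).

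Basement membrane genes also divided. These proteins form the sheet under the epidermis and around vessels, and of 20 tested 4 rose, 3 fell and the median was -0.16. The shares were 20% and 15%, against 5.26% and 11.8% of all tested genes. Col7a1, the collagen of anchoring fibrils, fell from 168 and 209 to 48.5 and 41.5 TPM (log2 change -2.04, SE 0.22, adjusted p = 0.000789). Nid2, a nidogen that links laminin and collagen, fell from 167 and 176 to 78.8 and 67.4 TPM (log2 change -1.22, SE 0.16, adjusted p = 0.00210), and Agrn, the proteoglycan agrin, by 1.42 on the log2 scale. Col15a1, a collagen at the outer face of the membrane, rose from 12.7 and 9.89 to 32.2 and 29.5 TPM (log2 change 1.38, SE 0.23, adjusted p = 0.00500). Among proteoglycans and hyaluronan genes 1 of 29 rose and 5 fell (median -0.33), a share of falls of 17.2%, and with the libraries left out in turn 0, 1, 2 and 3 fell. In the basement membrane list rises were 1, 2, 3 and 4 in that order. Gpc3, a glypican that holds growth factors at the surface, rose from 128 and 183 to 455 and 392 TPM (log2 change 1.46, SE 0.18, adjusted p = 0.00153), and Gpc2 fell from 7.62 and 5.37 to 0.58 and 1.59 TPM (log2 change -1.87, adjusted p = 0.00545, and adjusted p = 0.0626 without library 1 of day 12).

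The secretory pathway that folds collagen did not rise as a list, with 3 of 34 tested up, 4 down and a median of -0.09. These shares, 8.82% and 11.8%, were near the 5.26% and 11.8% of all tested genes. The collagen chaperone gene Serpinh1 rose from 936 and 1142 to 2611 and 2199 TPM (log2 change 1.21, SE 0.18, adjusted p = 0.00302). Plod2, a lysyl hydroxylase that sets the type of crosslink, fell from 16.8 and 19.7 to 3.89 and 4.43 TPM (log2 change -1.90, SE 0.25, adjusted p = 0.00181). The prolyl hydroxylase gene P4ha2 rose by 0.97 on the log2 scale and Pdia4, a disulfide isomerase, fell by 0.71, and neither held in every setting. P4ha2 did not pass without library 1 of day 12 or of day 26 (adjusted p = 0.175 and 0.1003), nor Pdia4 without library 2 of day 12 or of day 26 (0.127 and 0.0886). With the libraries left out in turn 1, 2, 1 and 2 members rose and 3, 1, 4 and 1 fell.

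Enzymes that handle foreign compounds, aldehydes and steroids had 14 rises among 30 tested (46.7%, beside 44.4% for elastic fibres), with 1 fall and a median of 0.79, which is 0.99 above that of all tested genes. The count was 8 without library 1 of day 12. Adh1, an alcohol dehydrogenase that also oxidises retinol, started from 50.9 and 43.8 TPM, had 128 and 116 TPM on day 15 and 197 and 264 TPM on day 21, and ended at 277 and 273 TPM (log2 change 2.52, SE 0.17, adjusted p = 0.000121). Its libraries of day 15 were already above those of day 12. The aldehyde dehydrogenase gene Aldh3a1 was listed at 0 in both libraries of day 12 and had 11.2 and 28.3 TPM on day 26 (log2 change 4.24, SE 0.41, adjusted p = 0.000518). The glutathione transferase genes Gstm2, from 233 and 221 to 478 and 460 TPM (log2 change 1.04, SE 0.12, adjusted p = 0.000957), and Gstm1, from 131 and 128 to 231 and 257 TPM (log2 change 0.90, SE 0.13, adjusted p = 0.00256), rose less but from a high level. They have near-identical relatives in the mouse genome, so their split of reads is uncertain. Aldh3a1 is also a gene of epithelia, and the rise of keratinocyte markers given below moved with it; their part was not tested.

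Retinoid handling changed by member. Retinoids reach cells on carrier proteins, enter through a receptor, and are oxidised to retinoic acid or cleared, and of 17 tested genes 5 rose, 2 fell and the median was -0.23 (-0.03 after quantile normalization). Stra6, the cell surface receptor for the retinol carrier, had the steepest fall of any pathway gene named here, from 51.6 and 55.9 TPM through 1.52 and 10.9 TPM on day 15 and 0.58 and 0.34 TPM on day 21 to 0.04 and 0.43 TPM (log2 change -5.49, SE 0.60, adjusted p = 0.000858). Most of this drop came before day 15. Aldh1a1, which makes retinoic acid, rose from 3.11 and 6.93 to 47.6 and 41.9 TPM (log2 change 2.999, SE 0.36, adjusted p = 0.00126), and Cyp26b1, which breaks it down, from 11.7 and 13.5 to 44.8 and 50.2 TPM (log2 change 1.84, SE 0.19, adjusted p = 0.000640). A synthetic and a clearing enzyme thus rose together. Rarres1, a gene induced by retinoids in other cells, rose from 14.5 and 16.9 to 123 and 71.1 TPM (log2 change 2.51, SE 0.28, adjusted p = 0.000906).

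Prostaglandin genes, the enzymes and receptors of these short-range lipid signals, showed 4 rises and 4 falls among 19 tested. Each is a share of 21.1%, against 5.26% and 11.8% of all tested genes. With the libraries left out in turn 1, 3, 1 and 4 rose and 1, 2, 2 and 2 fell. Ptger3, a receptor of prostaglandin E2, rose from 3.91 and 7.84 to 36.0 and 29.0 TPM (log2 change 2.34, SE 0.36, adjusted p = 0.00354) and Tbxa2r, the thromboxane receptor, by 1.32 (adjusted p = 0.0102, and 0.0998 and 0.0520 without library 1 of day 12 or of day 26). Tbxas1, thromboxane synthase, fell from 9.41 and 6.42 to 1.35 and 1.75 TPM (log2 change -1.79, SE 0.27, adjusted p = 0.00361), and Hpgds, a prostaglandin D synthase, by 1.86 on the log2 scale (adjusted p = 0.0158, and 0.118 and 0.0655 without those same libraries). Both enzymes are also made by macrophages, whose markers fell, and the part of those cells was not tested.

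The insulin-like growth factor axis had 4 rises and 4 falls among 17 tested genes, and with the libraries left out in turn 2, 3, 2 and 3 rises and 2, 3, 3 and 3 falls. In the fit of all libraries the rises and the falls were each 23.5% of the list, against 5.26% and 11.8% of all tested genes. The factors Igf1 and Igf2 act through Igf1r, and binding proteins hold them in the matrix. Igfbp2 was the most abundant of all strong risers. It began at 772 and 1147 TPM, had 1906 and 3423 TPM on day 15 and 7634 and 11743 TPM on day 21, and reached 12927 and 14299 TPM (log2 change 3.85, SE 0.32, adjusted p = 0.000274), and each later day lay wholly above the one before. Igfbp6, which prefers Igf2, rose from 115 and 219 to 648 and 565 TPM (log2 change 1.92, SE 0.30, adjusted p = 0.00386). Igf2bp2, an RNA-binding protein of growing tissue, fell from 10.6 and 10.9 to 2.34 and 1.41 TPM (log2 change -2.05, SE 0.28, adjusted p = 0.00239), and Igf2r, which clears Igf2, by 1.08 on the log2 scale (adjusted p = 0.00740, and 0.0869 without library 1 of day 12). The ligand gene Igf2 fell by 4.29.

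Among other growth factors 4 of 32 tested rose and 3 fell, and leaving out the libraries in turn gave 0, 4, 1 and 5 rises and 2, 2, 4 and 2 falls. In the fit of all libraries 12.5% rose and 9.38% fell, against 5.26% and 11.8% of all tested genes, so the falls were near the background. Pleiotrophin and midkine, heparin-binding factors of embryonic and regenerating tissue, fell together. Ptn began at 270 and 235 TPM, had 126 and 195 TPM on day 15 and 39.6 and 37.8 TPM on day 21, and ended at 13.5 and 25.03 TPM (log2 change -3.70, SE 0.28, adjusted p = 0.000196), and Mdk went from 221 and 253 to 86.9 and 71.9 TPM (log2 change -1.57, SE 0.22, adjusted p = 0.00255). Vegfc, a factor of lymphatic vessels, rose from 7.91 and 10.5 to 23.1 and 24.8 TPM (log2 change 1.30, adjusted p = 0.00729, and 0.0780 without library 1 of day 12).

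Receptors rose more often than they fell, 9 against 3 of 38 tested, which is 23.7% and 7.89%. Left out in turn, the libraries gave 5, 6, 7 and 7 rises and 2, 1, 2 and 1 falls. Lepr, the leptin receptor, went from 0.05 and 1.26 to 15.9 and 14.6 TPM (log2 change 3.396, SE 0.53, adjusted p = 0.00384); it was looked up after its values were seen. Fgfr4, a receptor of fibroblast growth factors, rose from 1.53 and 4.09 to 20.8 and 20.3 TPM (log2 change 2.59, SE 0.35, adjusted p = 0.00230). Tnfrsf19, a death receptor relative, rose from 11.9 and 18.6 to 71.5 and 61.3 TPM (log2 change 2.08, SE 0.24, adjusted p = 0.00105), and Il11ra1, a cytokine receptor, from 232 and 265 to 739 and 701 TPM (log2 change 1.53, SE 0.18, adjusted p = 0.00125). Il1rl1, a receptor of an alarmin cytokine, fell from 28.2 and 25.7 to 6.17 and 5.43 TPM (log2 change -2.04, SE 0.20, adjusted p = 0.000555).

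**Figure D4:**
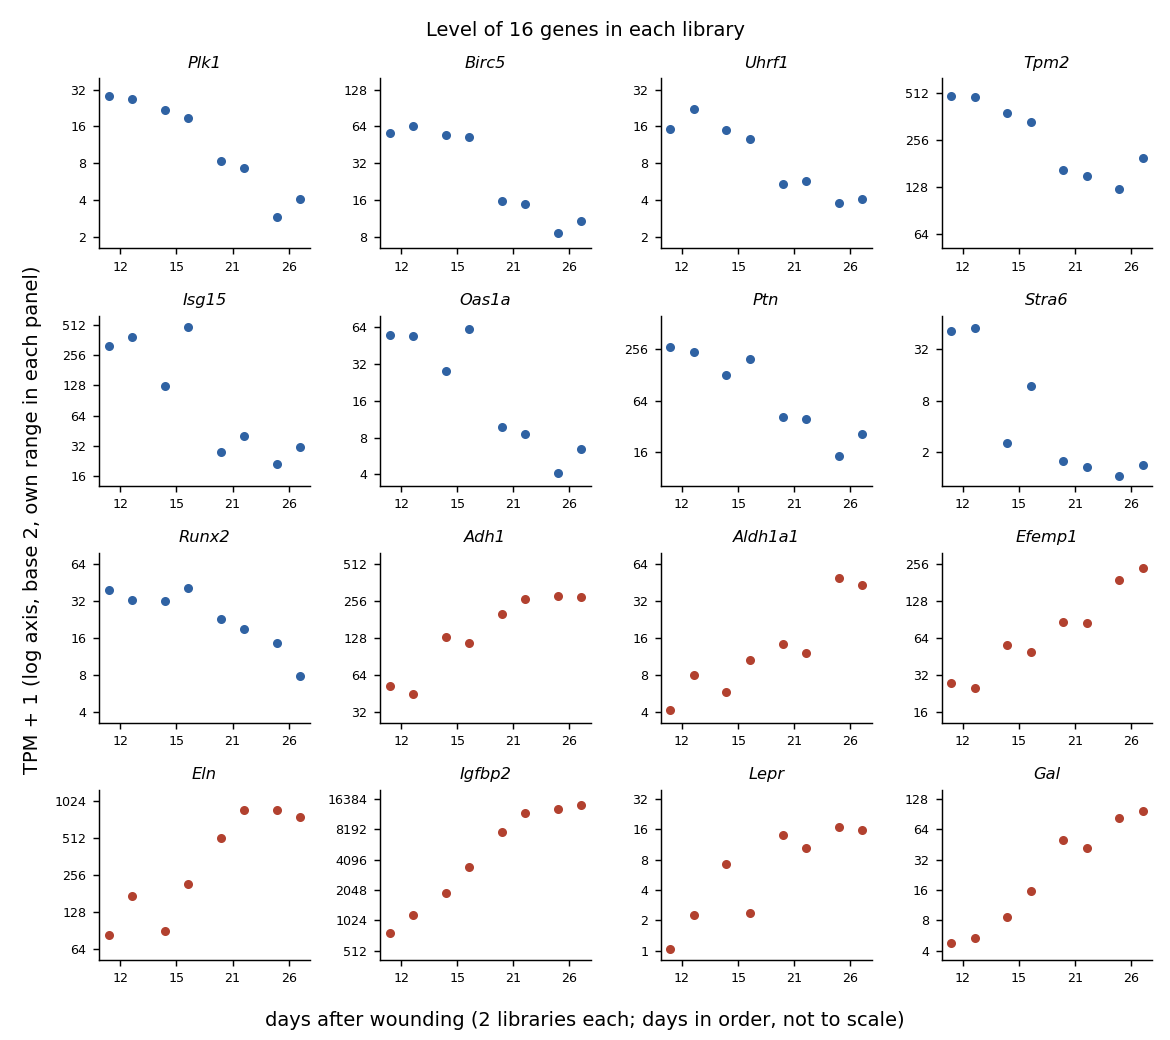
TPM + 1 (vertical axis, log base 2, own range in each panel) of 16 genes in the 2 libraries of each day (horizontal axis, days in order). Genes that fell over the span are blue and genes that rose are red; Stra6 was already low on day 15, whereas Birc5 and Isg15 were low from day 21 and Aldh1a1 was highest on day 26.

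Genes of cell contact and guidance were taken in 4 lists, to be read against the 5.26% and 11.8% of all tested genes that rose and fell. Of 17 tested cadherin and gap junction genes 5 rose and 3 fell, and with the libraries left out in turn 1, 4, 4 and 4 rose and 1, 2, 2 and 4 fell. Cdh4, or R-cadherin, rose from 0.88 and 1.04 to 6.77 and 14.1 TPM (log2 change 2.47, SE 0.35, adjusted p = 0.00250), Cdh3, or P-cadherin, fell from 16.9 and 20.2 to 5.03 and 1.85 TPM (log2 change -2.23, SE 0.38, adjusted p = 0.00545), and Cdh10 was listed at 0 in both libraries of day 26 after 4.01 and 2.07 TPM on day 12. The gap junction gene Gjb2, which keratinocytes express, rose from 0 and 0.12 to 19.7 and 3.50 TPM (adjusted p = 0.00912), beside the keratinocyte markers. Cdh10 and Gjb2 did not pass without library 1 of day 12 (adjusted p = 0.0716 and 0.0728). For semaphorins and plexins, guidance cues and their receptors, 3 of 29 rose and 2 fell, near those shares (1, 2, 1 and 2 rises and 0, 0, 0 and 1 falls with the libraries left out in turn). Sema3b rose from 55.0 and 83.6 to 244 and 204 TPM (log2 change 1.70, SE 0.20, adjusted p = 0.00123). For ephrins and Eph receptors, which repel neighbouring cells, 1 of 16 rose (Efna1, 1.00) and 3 fell (Efnb2, -1.19, Efna4, -0.97, and Epha7, -1.34), and without library 1 of day 12 none of these 4 passed (adjusted p between 0.0700 and 0.143). Efnb2 and Efna4 also missed the threshold without library 2 of day 12 (0.0606 and 0.110), Efna4 and Epha7 without library 1 of day 26 (0.0855 and 0.0759), and Epha7 without library 2 of day 26 (0.0747). In the Notch list 1 of 18 rose, the target gene Hes1, from 44.1 and 43.5 to 139 and 71.8 TPM (log2 change 1.17, adjusted p = 0.0269, and 0.139, 0.111 and 0.102 without library 1 or 2 of day 12 or library 1 of day 26).

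Transcription factors of mesenchyme fell more often than they rose, 7 against 3 of 39 tested, which at 17.9% and 7.69% is not far from the shares of all tested genes. With the libraries left out in turn 1, 3, 1 and 5 rose and 3, 6, 6 and 5 fell. Runx1, a factor of blood and of activated fibroblasts, fell from 47.3 and 43.7 to 15.33 and 14.7 TPM (log2 change -1.54, SE 0.19, adjusted p = 0.00136). Its relative Runx2, the master factor of bone, fell from 38.2 and 31.3 to 13.4 and 6.84 TPM (log2 change -1.75, SE 0.29, adjusted p = 0.00500), and Snai2, a factor of epithelial to mesenchymal change, from 50.1 and 55.2 to 25.4 and 25.1 TPM (log2 change -1.03, SE 0.15, adjusted p = 0.00318). Foxp1, a forkhead factor, fell by 1.03. Osr2, an odd-skipped factor of connective tissue, rose from 87.0 and 135 to 349 and 274 TPM (log2 change 1.505, SE 0.21, adjusted p = 0.00250). Runx2 was looked up after its values were seen and did not pass without library 1 of day 12 (adjusted p = 0.0571).

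In energy metabolism the calls were falls of small size. The oxidative phosphorylation and proteasome lists did not move apart from all tested genes, since their medians relative to those were both -0.03. Their shares of falls, 15.6% and 6.45%, were near or below the 11.8% of all tested genes. Of 23 tested glycolysis and hypoxia genes 7 fell (30.4%, against 11.8% of all tested genes) and none rose, with a median of -0.36, or -0.16 relative to all tested genes. Gapdh went from 1122 and 1083 to 614 and 554 TPM (log2 change -0.92, SE 0.16, adjusted p = 0.00711), and Gpi1, Tpi1 and Pkm, further enzymes of the pathway, changed by -0.82, -0.65 and -0.67. The falls were small and depended on the setting, since 2 glycolysis genes fell with median-of-ratios scaling and 0, 4, 4 and 7 with the libraries left out in turn. In oxidative phosphorylation 5 of 32 fell (15.6%), led by the cytochrome oxidase genes Cox5b (-0.71) and Cox5a (-0.76), with a median of -0.23 and 0 falls with median-of-ratios scaling, and with 0, 2, 2 and 2 falls when the libraries were left out in turn. Of 31 proteasome genes 2 fell, Psmb4 and Psma5, with changes of -0.50 and -0.44 and with 0 falls under median-of-ratios scaling or without any of the 4 libraries of days 12 and 26. Of 25 genes of amino acid supply 2 rose, among them the glutamine carrier Slc1a5 (1.117, adjusted p = 0.00663, and 0.0505 without library 2 of day 12). Lysosome and autophagy genes, with 3 rises and 2 falls among 29, stood near the background, as did the glucocorticoid and FOXO list with 2 and 3 of 24. Without library 1 of day 12 these lists had 0 rises each and 0 and 1 falls. In the latter list Cdkn1c, the cell cycle inhibitor p57, fell from 179 and 160 to 64.5 and 83.5 TPM (log2 change -1.19, SE 0.18, adjusted p = 0.00302). None of the 18 tested clock genes passed in limma, and 1 had an unadjusted p under 0.05. Without library 1 of day 26, 3 rose and 1 fell. The lowest values were for Rora (log2 change 1.05, adjusted p = 0.0587) and Cry2 (0.46, adjusted p = 0.171), and both passed with quantile or median-of-ratios scaling. The clock output gene Dbp, chosen after its values were seen, had 52.1 and 50.7 TPM on day 12 and 17.5 and 174 TPM on day 26, so its direction depended on the day 26 library used.

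Among the largest changes of well-expressed genes, several risers encode signals and matrix proteins. Gal, the neuropeptide galanin, climbed from 3.77 and 4.29 TPM through 7.71 and 14.5 TPM on day 15 and 49.4 and 40.4 TPM on day 21 to 81.7 and 95.6 TPM (log2 change 4.15, SE 0.27, adjusted p = 0.000121). Scara5, a scavenger receptor that takes up ferritin, had 1.42 and 10.3 TPM on day 12 and 72.8 and 112 on day 26 (log2 change 4.13, SE 0.67, adjusted p = 0.00478). Tnxb, the tenascin of loose connective tissue, rose from 2.15 and 5.15 to 62.9 and 52.2 TPM (log2 change 3.73, SE 0.34, adjusted p = 0.000402), in contrast to Tnc, the tenascin of wounds, which fell from 202 and 224 to 17.7 and 16.2 TPM (log2 change -3.58, SE 0.14, adjusted p = 1.91e-05), the lowest adjusted p of all tested genes. The proteoglycan gene Prelp (3.71), the kinase gene Camk2a (3.56), the matrilin gene Matn4 (3.49) and the adiponectin relative C1qtnf7 (3.37) had rises of similar size on the log2 scale. Of these, Gal, Tnxb, Prelp, Camk2a and C1qtnf7 also rose between days 15 and 21, and Scara5 and Matn4 did not pass there (adjusted p = 0.204 and 0.117).

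Among the largest falls, some genes are known from macrophages. Spp1, or osteopontin, went from 851 and 408 to 28.3 and 35.8 TPM (log2 change -4.17, SE 0.30, adjusted p = 0.000147), with 56.7 and 65.6 TPM on day 15. Trem2, a lipid receptor of macrophages, went from 92.9 and 64.3 to 4.22 and 8.76 TPM (log2 change -3.46, SE 0.31, adjusted p = 0.000402), and Hmox1, heme oxygenase, from 349 and 283 to 39.9 and 25.6 TPM (log2 change -3.26, SE 0.21, adjusted p = 0.000121). All 3 stood beside the fall of macrophage markers, and the part of those cells was not tested. Tes, a LIM protein of focal adhesions, fell from 46.7 and 46.4 to 4.39 and 3.44 TPM (log2 change -3.28, SE 0.24, adjusted p = 0.000163), further than any member of the actomyosin list.

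Genes listed at 0 on one of the days add a small set. In both libraries of day 12, 122 tested genes were listed at 0, of which 47 had at least 1 TPM in both libraries of day 26, and 194 were listed at 0 in both libraries of day 26, of which 54 had at least 1 TPM in both of day 12. A listed 0 can be a failed estimate, so no fold is given. The 5 with the highest lower value on day 26 were Ly6d (23.3 and 85.9 TPM), Gm13306 (11.8 and 32 TPM), Aldh3a1, Krt71 (33.0 and 8.97 TPM) and Krtdap (8.37 and 34.4 TPM). Ly6d and Krtdap are in the keratinocyte list and Krt71 is a keratin of the hair follicle sheath. In the other direction the first 5 were Gm4955 (9.10 and 10.2 TPM on day 12), an entry with the symbol Map4 (7.18 and 14.3 TPM), the histone gene Hist1h2ab (6.69 and 12.0 TPM), the pseudogene Gm8430 (5.70 and 5.33 TPM, not passed) and Gm9830 (6.12 and 4.92 TPM). For histone genes, pseudogenes and gene models the assignment of reads among copies is uncertain.

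Markers of other cells show what the sort may have carried. Of 28 tested keratinocyte markers 25 rose and 3 did not pass, and their summed level was 26.8 and 31.5 TPM on day 12, then 128 and 171 TPM (day 15), 219 and 241 TPM (day 21) and 561 and 1289 TPM (day 26). On day 12, 13 of the 36 listed markers were at 0 in both libraries, and on day 26 none was. Of 32 macrophage and leukocyte markers 25 fell, from a sum of 9006 and 6148 TPM to 2243 and 3510 TPM, with no marker at 0 on either day. Not every member was lower, since 6 of the 32 had higher means on day 26. Ctss, a protease of antigen-presenting cells, went from 532 and 444 to 49.5 and 83.3 TPM, whereas Cd74, the invariant chain of MHC class II, had 560 and 442 and then 636 and 814 TPM and H2-Ab1, a class II chain, 212 and 176 and then 325 and 462 TPM, neither of which passed. Without library 1 of day 12, 16 keratinocyte markers rose and 15 macrophage markers fell. Lymphocyte and granulocyte markers had 1 fall among 10 tested (sum 43.1 and 28.3, then 13.6 and 34.4 TPM), endothelial markers 1 rise among 16 (236 and 177, then 170 and 386 TPM), pericyte markers 0 calls in limma among 12 with 1 at an unadjusted p under 0.05 (1566 and 1231, then 975 and 2158 TPM), and neural crest and muscle markers 1 rise among 13 (224 and 331, then 189 and 487 TPM). For these 4 lists the sums of the days overlapped. Adipocyte markers had 2 rises and 2 falls among 11 tested, with a sum of 1206 and 1295 TPM on day 12 and 444 and 557 TPM on day 26. Most of the day 12 sum was Fabp5, a fatty acid binding protein of many cell types, with 936 and 1016 and then 68.5 and 126 TPM. On day 26 the largest part was Lpl, lipoprotein lipase, with 118 and 149 and then 294 and 250 TPM. Cidec, Lep, Pck1 and Ucp1, genes of mature fat cells, were listed at 0 in all 4 libraries of these days. Adipoq, which encodes adiponectin, was listed at 0 in both libraries of day 12 and at 0.57 and 3.77 TPM on day 26. Likewise at 0 on day 12 and present on day 26 were Cidea, a lipid droplet protein (1.09 and 5.83 TPM), Cfd, or adipsin (0.12 and 5.39 TPM), and Plin1, or perilipin (0.78 and 0.76 TPM). These levels are near the floor. Cidea did not pass (adjusted p = 0.0780), and Adipoq and Plin1 did not reach the filter for testing. In the same list Cd36 went the other way, from 21.0 TPM in both libraries of day 12 to 4.26 and 2.44 TPM on day 26. The markers listed at 0 in both libraries numbered 10 of 20 on day 12 and 5 on day 26. Of the factors that lead to fat cells, Zfp423 rose from 4.55 and 3.92 to 15.5 and 9.88 TPM (log2 change 1.36, SE 0.27, adjusted p = 0.0113), with values between 0.0639 and 0.0704 when library 1 or 2 of day 12 or library 1 of day 26 was left out. Pparg missed the threshold (adjusted p = 0.184), at 4.55 and 3.44 and then 6.84 and 8.33 TPM.

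**Figure D5:**
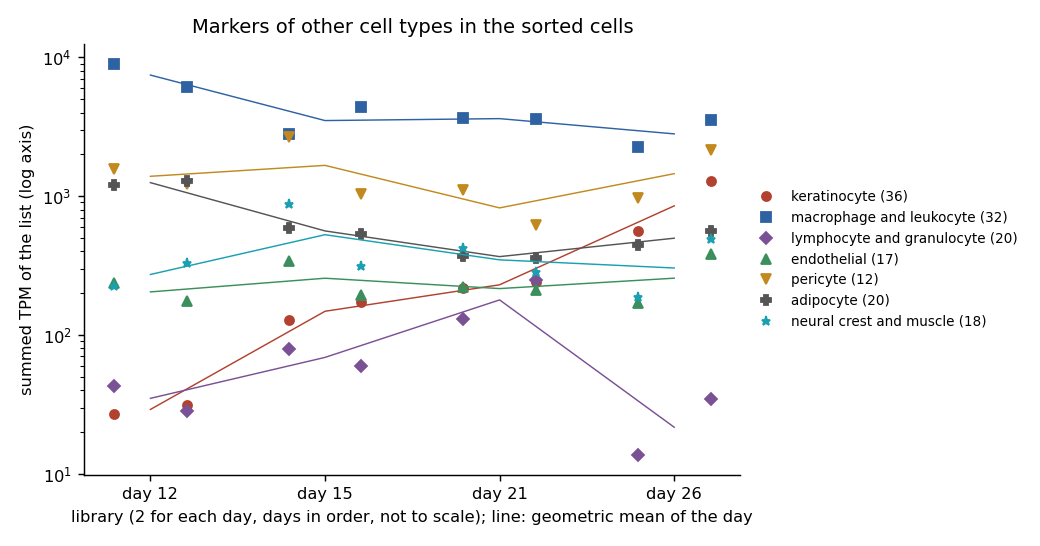
Summed TPM (vertical axis, log scale) of 7 lists of markers for other cell types in the 2 libraries of each day, with lines through the geometric means of the days and the number of listed genes in brackets. Keratinocyte markers climbed from 26.8 and 31.5 TPM on day 12 to 561 and 1289 TPM on day 26, macrophage markers were highest on day 12, and endothelial and pericyte sums overlapped between the days.

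The authors' deposited tables sort 4120 genes into 5 clusters by their course over the 4 days. Of the genes that rose 605 (76.4%) and of those that fell 1388 (78.4%) were in a cluster. Cluster C4 held 443 risers among its 652 tested genes and cluster C5 161 among 286, with no faller in either. Clusters C2, with 796 fallers of 1187 tested, and C1, with 582 of 1165, held no riser, and C3 held 1 riser and 10 fallers among 273. The clusters were made from these same libraries, so their split is a description and not separate evidence.

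Gene positions were looked up in the GENCODE vM21 annotation of mm10, which held all 20 of the genes sought. Igfbp2 (ENSMUSG00000039323.14) lies on chromosome 1 from 72824503 to 72852474, Gal (ENSMUSG00000024907.6) on chromosome 19 from 3409915 to 3414544, Stra6 (ENSMUSG00000032327.10) on chromosome 9 from 58063788 to 58153996, Ptn (ENSMUSG00000029838.8) on chromosome 6 from 36714929 to 36810220, Efemp1 (ENSMUSG00000020467.11) on chromosome 11 from 28853204 to 28926743, Eln (ENSMUSG00000029675.9) on chromosome 5 from 134702593 to 134747323, Adh1 (ENSMUSG00000074207.6) on chromosome 3 from 138260991 to 138290698, and Birc5 (ENSMUSG00000017716.11) on chromosome 11 from 117849251 to 117855743. The values cover whole genes, with no split into exons.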

How the data were processed

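RNA of sorted wound cells was measured in 8 SMART-seq2 libraries, 2 for each of days 12, 15, 21 and 26. The authors deposited a signal for each of 43346 genes whose columns, less 1, all have the same sum up to rounding, so it was read as TPM plus 1. Per the submitters' processing notes RSEM 1.12.2 and mm10 were used, and for the aligner the sources used here give nothing. The method keeps no strand. The authors' cluster tables hold, per the file headers, a p-value and a signed fold score for each gene; both are the authors' values, and the score (a ratio of mean TPM + 1 between days 26 and 12, negative for falls) was used only to check direction. In them 40 value columns of single samples were not used. Value columns carry numbers that differ from the labels' replicate numbers, so they were assigned to days.

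Genes reaching 1 TPM in 2 or more libraries were fitted on log2(TPM + 1) with limma 3.58.1 in R 4.3.3 (trend, day as a factor, 4 residual degrees of freedom), with 2-sided contrasts of day 26 against 12 and 21 against 15 and Benjamini-Hochberg adjustment over all tested genes. The script was checked on simulated data. Genes and lists were chosen with earlier results of these data known. Named were the 15 largest rises and falls of well-expressed genes outside marker lists, up to 4 members of each list by adjusted p (2 where none passed), 5 genes at 0 on each day, and Acta2, Tagln, Pparg and Zfp423; some are only counted or not reported here. Lists are described by counts and medians, with no set test. Alternatives changed the pseudocount, filter, scaling, variance model and libraries.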

Additional observations from a re-analysis of the deposited data

How the results depend on the processing

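For day 26 against day 12, no gene called in the values as reported was called the other way under any setting tried. Counts of rises and falls there stayed within 1.5 times of 792 and 1770 with a pseudocount of 0.1, a filter of 5 TPM, quantile normalization, protein-coding TPM, and eBayes without trend or robust. Without a filter 1130 fell, with median-of-ratios scaling 1234 rose and 1098 fell, and with the 4 libraries of these days alone 525 rose and 1065 fell. Leaving out a library gave 280 to 551 rises and 438 to 1215 falls; a day left with 1 library is assumed to vary like the others. Without the day 15 and day 21 libraries with the most Xist, an alternative added after the data were seen, 518 rose and 1051 fell.

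For day 21 against day 15 the counts were less stable. They were 43 rises and 91 falls with a pseudocount of 0.1, 23 and 21 without a filter, 48 and 68 with median-of-ratios scaling, 114 rises with protein-coding TPM, 18 and 33 without trend, 5 and 11 with 4 libraries, 0 to 39 and 2 to 57 leaving out a library, and 0 and 0 in limma without the pair with the most Xist (692 and 810 at an unadjusted p under 0.05). The causes were not tested. Of 165 genes, those of the naming rule and those added after the values were seen, 159 passed and 97 of these kept the call in every setting that tested them; 58 lost it without library 1 of day 12. The log2 change of Dbp, 0.12 and not called, was 1.742 without library 1 and reversed to -1.505 without library 2 of day 26. No paired analysis was possible because the value columns do not carry the replicate numbers of the labels. Depth is unknown, and with 2 libraries a day small changes could go unseen.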
